A study of Schizosaccharomyces pombe with 6 samples.

Results

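Oxidative phosphorylation is the mitochondrial process in which electrons from NADH and succinate pass along a chain of membrane complexes to oxygen, and the proton gradient so built drives ATP synthase. Fission yeast has no multi-subunit NADH dehydrogenase complex: single-polypeptide NADH dehydrogenases and succinate dehydrogenase feed electrons to coenzyme Q, the cytochrome bc1 complex passes them to cytochrome c, and cytochrome c oxidase reduces oxygen. Most subunits are encoded in the nucleus and a few in mitochondrial DNA. In rich glucose medium the cells also ferment, and the chain runs beside glycolysis.

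The genes described here are the nuclear subunits of these complexes, chosen by 37 standard gene symbols, a list drawn up with earlier results of these data known but by a rule that uses no measured value. They comprise ATP synthase, cytochrome c oxidase, the cytochrome bc1 complex, cytochrome c, succinate dehydrogenase and the NADH dehydrogenases. Of the 37 symbols, 35 matched a gene name in the deposited tables. For sdh4, a further symbol, the match was to another name of a row called tim18, which the deposited annotation describes as a membrane anchor of the TIM22 import complex, so its place in succinate dehydrogenase rests on that other name alone. The symbol ndi1 found no row and is not analysed here. All 36 genes found passed the filter on low counts, out of 6046 features tested and 6986 in the count table.

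The libraries compare a Schizosaccharomyces pombe strain carrying seb1-G476S with a wild-type strain, by sequencing of polyadenylated RNA. Seb1 is an RNA-binding factor that acts in termination by RNA polymerase II, and the series' title calls the allele a gain-of-function mutation found in a suppressor screen. The mutant libraries came from an h+ strain with the allele STF19 (seb1-G476S) and rpb1-CTD-WT29 marked by KanMX, and the wild-type libraries from an h+ strain with rpb1-CTD-WT29 marked by NatMX. Both strains thus share the rpb1 construct, and the drug marker differs along with the seb1 allele, so the effects of marker and allele cannot be told apart. Cells of both strains grew vegetatively in YES, a rich medium, at 30 ºC and were taken in log phase. Each group has 3 biological replicates per the series' design text, and the wild-type libraries came from an earlier deposit of the same sequencing run.

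Each library held 21013941 to 27910803 counts over the annotated features, and levels are given as CPM, counts per 1000000 on library sizes adjusted by TMM, on which 1 count was worth 0.0371 to 0.0445 CPM. Wild-type replicate 3 stood farthest from its group, with a mean correlation of 0.992 with the other wild-type libraries, against 0.994 for wild-type replicate 1, 0.995 for wild-type replicate 2 and at least 0.996 for each mutant library. Counts per gene do not check the point mutation itself. Both strains are labelled h+, the P mating type, and genes of both mating types were detected. Of 2 P-cell genes tested, map3 rose (58.6 to 71.2 CPM in mutant and 28.7 to 36.7 CPM in wild-type libraries) and map2 did not pass (4.31 to 5.7 CPM in mutant and 4.62 to 5.12 CPM in wild-type libraries). Of 8 M-cell genes, mat1-Mc and mat1-Mi had 0 counts in every library and 6 were tested, of which 2 were called higher and none lower: mam2 (20.8 to 27.4 CPM in mutant and 10.8 to 22.3 CPM in wild-type libraries) and mfm1, at 1.42 CPM or less in every library. With library totals alone none of the 6 was called higher and 1 was called lower. The part of mating type in the results below was not tested. All values are shares of each library's RNA, so fewer transcripts per cell, fewer cells of a kind and a change in the rest of the RNA cannot be told apart.

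Most subunit genes moved little in the mutant, and those that moved did so in both directions. By edgeR's quasi-likelihood test with Benjamini-Hochberg adjustment over all 6046 features, 14 of the 36 genes rose and 7 fell at an adjusted p under 0.05, and 15 did not pass. In the same comparison 26.7% of all tested features were called higher and 28.4% lower, 55.0% in either direction, against 38.9% of the subunit genes higher, 19.4% lower and 58.3% in either direction. The share of subunit genes called was thus near the background, with more of the calls upward. The log2 fold changes, mutant over wild type, ran between -0.54 (cox13) and 0.56 (qcr7) with a median of 0.15, beside a median of -0.01 over all tested features and -0.05 over the 4952 tested coding genes. The mutant and wild-type ranges did not overlap for 17 genes with the mutant above and for 8 with it below, where the background was 31.3% above and 32.6% below.

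How many genes were called in each direction depends on the scaling, though no gene called with TMM changed sign. With library totals alone in place of TMM, the median of all features shifted by -0.12 on the log2 scale and 7 subunit genes were called higher and 9 lower. The higher share of calls then was 43.8% for the subunit genes, against 66.7% with TMM, and 33.4% for all features, against 48.5% with TMM. The gap between the median of the subunit genes and that of all features was 0.16 under both scalings. A change of scaling moves both medians nearly alike, so this gap could hardly differ. It was 0.11 without wild-type replicate 3 and 0.20 without wild-type replicate 1. Leaving out wild-type replicate 3 gave 11 genes higher and 8 lower, and leaving out mutant replicate 2 gave 7 higher and 3 lower. The call was the same in all 11 alternatives for 7 of the higher genes (qcr7, atp17, qcr9, cox8, nde1, cox6 and atp1) and for 3 of the lower (cox13, qcr6 and cox12).

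**Figure D1:**
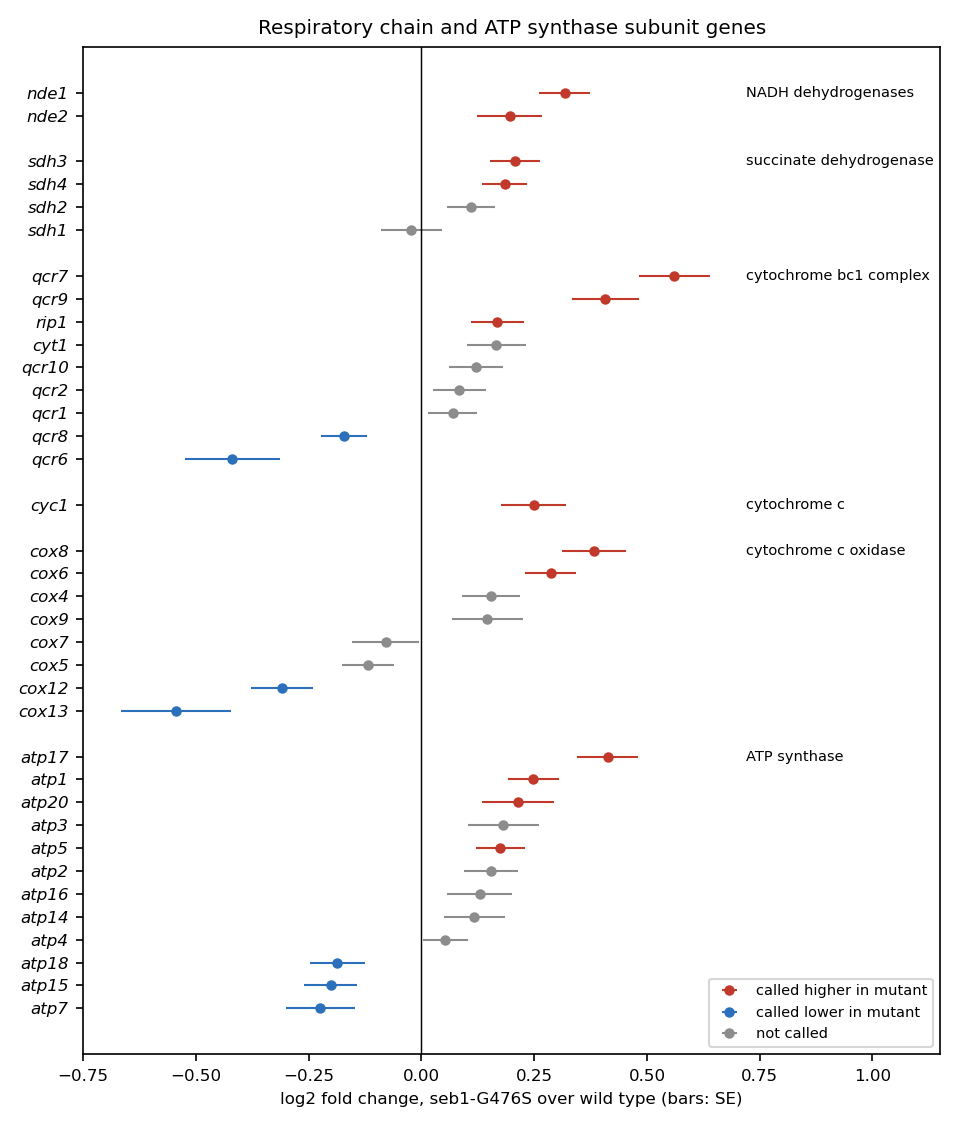
The log2 fold change (seb1-G476S over wild type) of each of the 36 subunit genes is on the horizontal axis with its standard error as a bar, and genes run down the page in blocks by complex. Genes called higher (red) reach 0.56 at qcr7 and genes called lower (blue) reach -0.54 at cox13, and cytochrome c oxidase, the bc1 complex and ATP synthase each hold calls in both directions.

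The NADH dehydrogenases, nde1 and nde2, pass electrons from NADH to coenzyme Q without pumping protons. The gene nde1 (SPBC947.15c, chromosome II) had 319.5, 317 and 292 CPM in the mutant libraries, against 256, 240.0 and 249 CPM in the wild-type libraries. Every mutant library was above every wild-type one, and nde1 rose by a log2 fold change of 0.32 ± 0.06 (SE), an adjusted p of 0.00146. The gene nde2 (SPAC3A11.07, chromosome I) had 1331, 1222 and 1169 CPM in the mutant and 1173, 1064 and 1014 CPM in the wild type. These groups overlapped, since wild-type replicate 1 reached mutant replicate 3, and the rise of 0.20 ± 0.07 (adjusted p = 0.0420) was lost without mutant replicate 1 or 2 or wild-type replicate 2 or 3 (adjusted p of 0.0764 to 0.156) and with library totals alone (adjusted p = 0.191). The coding sequences of nde1 and nde2 are equally long, 1656 bases each in the RefSeq annotation. Per kilobase of coding sequence nde1 stood at 187 CPM in mutant and 150 CPM in wild-type libraries, and nde2 at 749 CPM in mutant and 654 CPM in wild-type libraries, so nde2 was the more abundant transcript in both strains.

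Succinate dehydrogenase oxidises succinate in the TCA cycle and hands the electrons to coenzyme Q. Of its 4 genes 2 rose and none was called lower, 1 of 3 if sdh4 is left out. The membrane anchor gene sdh3 (chromosome III) had 557, 575 and 549 CPM in the mutant, against 495, 502 and 459 CPM in the wild type, with no overlap, a log2 fold change of 0.21 ± 0.06 and an adjusted p of 0.0102. The gene matched to sdh4 (SPBP23A10.16, chromosome II) had 335, 346 and 341 CPM in the mutant, against 305, 302 and 292 CPM in the wild type, also without overlap (0.18 ± 0.05, adjusted p = 0.0110). Both calls were lost without mutant replicate 2, at an adjusted p of 0.0615 for sdh3 and 0.0665 for sdh4, and with library totals alone, at 0.114 for sdh3 and 0.210 for sdh4. The catalytic flavoprotein gene sdh1 averaged 977 ± 46.4 CPM in the mutant and 993 ± 74.4 CPM in the wild type (SD, n = 3 each) and did not pass (log2 -0.02, adjusted p = 0.788), though it was called lower with library totals alone (adjusted p = 0.0239). The iron-sulfur subunit gene sdh2 averaged 489 ± 9.82 CPM in the mutant and 453 ± 17.7 CPM in the wild type and did not pass either (0.11, adjusted p = 0.101), though it was called higher with the replicate block (0.0348).

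The cytochrome bc1 complex takes electrons from reduced coenzyme Q, and it held the subunit gene with the largest upward change. Of its 9 genes 3 rose, 2 fell and 4 did not pass. The small subunit gene qcr7 (SPCC737.02c, chromosome III) had 553, 615 and 609 CPM in the mutant libraries, against 410.1, 437 and 358 CPM in the wild-type libraries. The lowest mutant library exceeded the highest wild-type one, and qcr7 rose 1.47-fold (log2 0.56 ± 0.08, adjusted p = 0.000364); without wild-type replicate 3, the lowest library, the log2 value was 0.48. The small subunit gene qcr9 (SPCC1682.01, chromosome III) had 238, 255 and 255 CPM in the mutant, against 194, 203 and 167 CPM in the wild type, a rise of 1.33-fold with no overlap (0.41 ± 0.07, adjusted p = 0.00156). The Rieske iron-sulfur gene rip1 (chromosome II) had 609, 632 and 604 CPM in the mutant and 579, 546 and 516 CPM in the wild type. Its groups did not overlap either, but its call (0.17 ± 0.06, adjusted p = 0.0318) was lost without any 1 library other than wild-type replicate 1, at an adjusted p of 0.0603 to 0.137, and with library totals alone (0.316).

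The hinge protein gene qcr6 (SPBC16C6.08c, chromosome II), whose acidic product assists cytochrome c1 in budding yeast, moved the other way. It had 68.1, 79.6 and 79.3 CPM in the mutant, against 90.8, 94.4 and 119 CPM in the wild type. Every mutant library was below every wild-type one, with wild-type replicate 3 the highest, and qcr6 fell by 0.42 on the log2 scale (SE 0.11, adjusted p = 0.00783), or by 0.29 without that library (adjusted p = 0.0047). The small subunit gene qcr8 (SPAC1782.07, chromosome I) had 167, 160.5 and 161 CPM in the mutant and 184, 181 and 185 CPM in the wild type. The spread within each group was narrow beside the gap, and qcr8 fell by 0.17 (SE 0.05, adjusted p = 0.0166), a call lost without mutant replicate 2 (adjusted p = 0.0917). The cytochrome c1 gene cyt1 averaged 698 ± 38.5 CPM in the mutant and 622 ± 39.1 CPM in the wild type and fell just short of the threshold (log2 0.17, adjusted p = 0.0530). It passed without mutant replicate 3 or wild-type replicate 1, and under DESeq2, its size factors and the replicate block. The core subunit genes qcr1 and qcr2 and the small subunit gene qcr10 did not pass, with log2 values of 0.07 for qcr1, 0.08 for qcr2 and 0.12 for qcr10. The deposited annotation describes qcr1 as the beta subunit of the mitochondrial processing peptidase.

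Cytochrome c, encoded by cyc1 (SPCC191.07, chromosome III), carries electrons between the bc1 complex and cytochrome c oxidase. It had 1004, 1028 and 946 CPM in the mutant, against 881, 878 and 748 CPM in the wild type. The groups did not overlap and wild-type replicate 3 was the lowest library; cyc1 rose by a log2 fold change of 0.25 ± 0.07 (adjusted p = 0.0157). The call was lost without mutant replicate 1 or 2 (adjusted p of 0.0508 to 0.0717) and with library totals alone (0.0825).

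Cytochrome c oxidase reduces oxygen with the electrons of cytochrome c. Its 8 nuclear genes split evenly: 2 rose, 2 fell, 4 did not pass, and the median log2 value was 0.03. The gene cox8 (SPAC24C9.16c, chromosome I), for the small membrane subunit VIII, had 108, 121 and 119 CPM in the mutant, against 92.9, 91.7 and 81.9 CPM in the wild type. The gene cox6 (SPAC1B2.04, chromosome I), for subunit VI, had 277, 280.2 and 280.0 CPM in the mutant, against 237, 236 and 214 CPM in the wild type. Neither gene's groups overlapped, and the mutant libraries of cox6 were within a few CPM of each other. The gene cox8 rose 1.30-fold (log2 0.38 ± 0.07, adjusted p = 0.00169) and cox6 rose 1.22-fold (0.29 ± 0.06, adjusted p = 0.00244).

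The 2 oxidase genes that fell, cox13 and cox12, encode subunits VIa and VIb. The gene cox13 (SPCC1739.09c, chromosome III) had 65.2, 67.3 and 71.0 CPM in the mutant, against 80.8, 96.1 and 119.9 CPM in the wild type. The mutant libraries were close together and the wild-type libraries spread widely above them, with wild-type replicate 3 the highest. The fall of cox13 was 0.54 on the log2 scale (SE 0.12, adjusted p = 0.00440), the largest downward change of the 36 genes, or 0.39 without wild-type replicate 3 (adjusted p = 0.00113). The gene cox12 (SPCC1442.08c, chromosome III) had 102, 89.4 and 89.4 CPM in the mutant and 119, 111 and 118 CPM in the wild type, again without overlap, and fell by 0.31 (SE 0.07, adjusted p = 0.00414).

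The other 4 oxidase genes did not pass. The gene cox4 averaged 296 ± 10.5 CPM in the mutant and 266 ± 19.7 CPM in the wild type (log2 0.15, adjusted p = 0.0664). Without wild-type replicate 1 it passed, at an adjusted p of 0.0104, as did cox9 (171 ± 6.41 CPM in the mutant and 154 ± 16.9 CPM in the wild type; log2 0.15), at 0.0102. The replicate block also made both calls, at an adjusted p of 0.0116 for cox4 and 0.0308 for cox9. The gene cox5 averaged 451 ± 9.28 CPM in the mutant and 490.0 ± 30.3 CPM in the wild type (log2 -0.12, adjusted p = 0.108); it passed as lower without wild-type replicate 3 (0.0242), with library totals alone (0.00168) and with the replicate block (0.0283). The gene cox7 averaged 82.6 ± 6.67 CPM in the mutant and 87.3 ± 4.92 CPM in the wild type (log2 -0.08, adjusted p = 0.387), and its groups overlapped.

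ATP synthase couples proton flow through its membrane part to ATP synthesis in its F1 head. The roles of its single subunits are given as known from budding yeast. Of its 12 nuclear genes 4 rose, 3 fell and 5 did not pass, or 2 rose and none was called lower without mutant replicate 2. Each structural part held calls in both directions: 1 higher and 1 lower among 5 genes of the F1 head and rotor, 1 and 1 among 4 genes of the peripheral stalk, and 2 higher and 1 lower among 3 genes of the membrane part.

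In the F1 head, atp1 (SPAC14C4.14, chromosome I), which encodes the alpha subunit, had 1095, 1062 and 1043 CPM in the mutant, against 949, 877 and 867 CPM in the wild type. The groups stood apart, and atp1 rose by 0.25 ± 0.06 (adjusted p = 0.00481). The gene for the catalytic beta subunit, atp2 (SPAC222.12c, chromosome I), had 2533, 2532 and 2568 CPM in the mutant and 2408, 2302 and 2148 CPM in the wild type. Every mutant library of atp2 was above every wild-type one, but at 0.15 ± 0.06 it missed the threshold (adjusted p = 0.0512), which it met once wild-type replicate 1 was left out (0.0115), with DESeq2 or its size factors, and with the replicate block. The rotor gene for the gamma subunit, atp3, averaged 439 ± 29.5 CPM in the mutant and 387 ± 37.2 CPM in the wild type (0.18, adjusted p = 0.0735), and became a call without wild-type replicate 1 (0.0122) and with the replicate block (0.00308). The rotor gene for the delta subunit, atp16, averaged 263 ± 6.88 CPM in the mutant and 241 ± 23.3 CPM in the wild type (0.13, adjusted p = 0.154). The rotor gene for the epsilon subunit, atp15 (SPBC31F10.15c, chromosome II), went the other way, with 100.04, 93.4 and 90.4 CPM in the mutant, against 108, 109.5 and 109 CPM in the wild type. The wild-type libraries nearly coincided above the mutant ones, and atp15 fell by 0.20 (SE 0.06, adjusted p = 0.0155), a call lost without mutant replicate 2 or 3 or wild-type replicate 2 (adjusted p of 0.0503 to 0.0778).

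The peripheral stalk holds the F1 head still against the rotor. Its gene atp5 (chromosome III), for the subunit that joins stalk and head, had 388, 380.1 and 399 CPM in the mutant, against 354, 353 and 327 CPM in the wild type. The groups did not overlap, but the call (0.17 ± 0.05, adjusted p = 0.0210) was lost without any 1 mutant library (adjusted p of 0.0521 to 0.0800) and with library totals alone (0.308). The stalk gene atp7 (SPBC29A10.13, chromosome II) had 80.8, 83.6 and 91.8 CPM in the mutant, against 95.5, 94.9 and 109 CPM in the wild type. It fell by 0.22 (SE 0.08, adjusted p = 0.0298) with no overlap, a call lost without mutant replicate 1 or 2 (adjusted p of 0.106 to 0.107). The other stalk genes did not pass: atp4 averaged 526 ± 11.9 CPM in the mutant and 507 ± 11.8 CPM in the wild type (0.05), and atp14 averaged 160.5 ± 12.7 CPM in the mutant and 148 ± 5.28 CPM in the wild type (0.12).

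In the membrane part, atp17 (SPBC1604.11, chromosome II), for subunit f, had 311, 328 and 326 CPM in the mutant, against 251, 255 and 218 CPM in the wild type. Its mutant libraries lay well above all wild-type ones, and it rose 1.33-fold (0.41 ± 0.07, adjusted p = 0.000862). The gene atp20 (chromosome I), for subunit g, had 191.3, 187 and 168 CPM in the mutant and 169, 163 and 140.0 CPM in the wild type. These groups overlapped between mutant replicate 3 and wild-type replicate 1, and the call (0.21 ± 0.08, adjusted p = 0.0448) was lost without mutant replicate 1 or 2 or wild-type replicate 2 or 3 (adjusted p of 0.0716 to 0.146) and with library totals alone (0.239). The gene atp18 (SPAC23C4.11, chromosome I), for another small membrane subunit, had 68.5, 70.4 and 65.0 CPM in the mutant, against 79.0, 78.0 and 75.2 CPM in the wild type. It fell by 0.19 (SE 0.06, adjusted p = 0.0254) with no overlap, and its call was lost without any 1 library other than wild-type replicate 3 (adjusted p of 0.0572 to 0.0861).

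**Figure D2:**
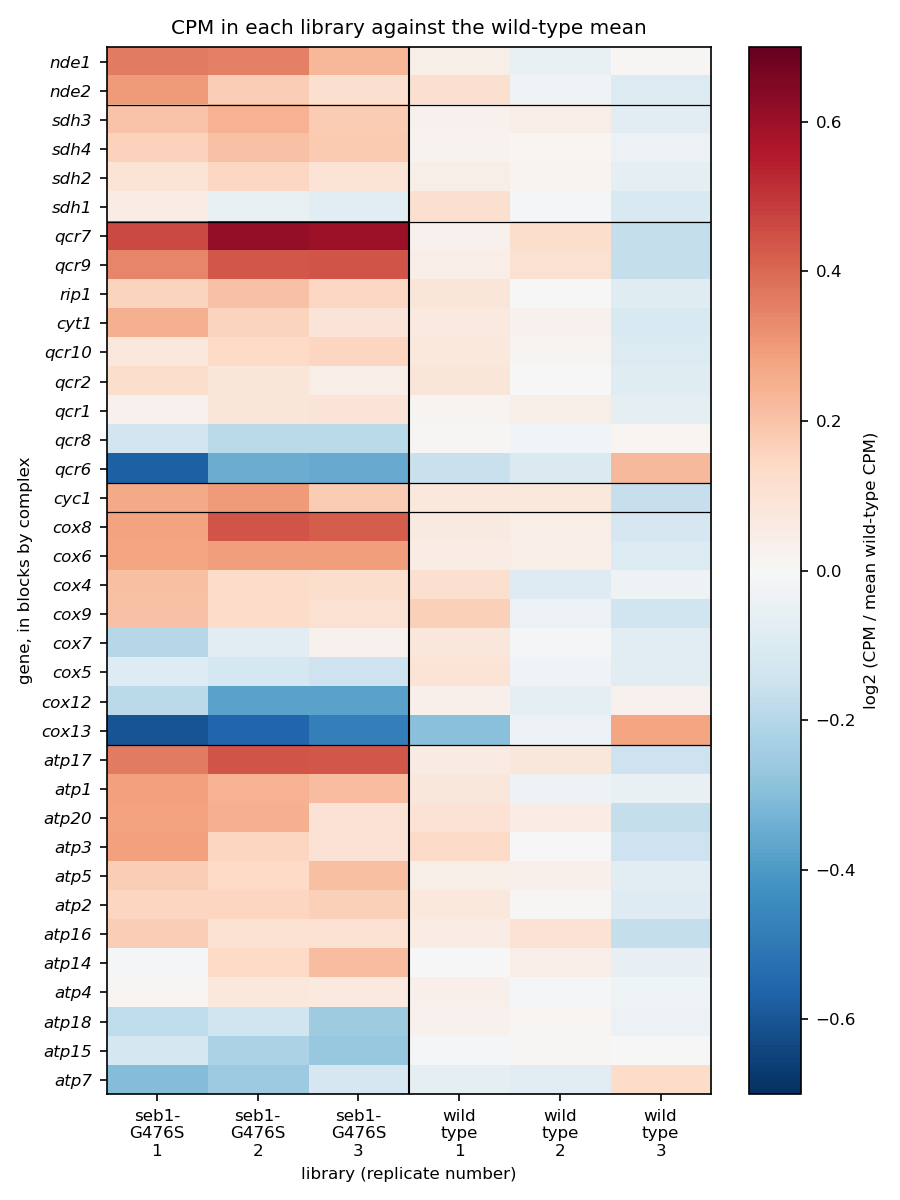
Each cell gives the log2 ratio of a library's CPM to the gene's wild-type mean, with the 3 seb1-G476S libraries left of the 3 wild-type libraries and genes in blocks by complex. The mutant columns are red for qcr7, qcr9 and atp17 and blue for cox13 and qcr6, and wild-type replicate 3 is the palest or bluest wild-type column for most genes and the reddest for cox13 and qcr6.

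Wild-type replicate 3 took a like position in many of the genes. It was the lowest wild-type library in 13 of the 14 genes called higher and in 14 of the 15 not called, and the highest in 4 of the 7 called lower, the lowest in 1 of them. Without it the median log2 fold change of the 36 genes was 0.10, against 0.15 with it. Its part in the result beyond these values was not tested.

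Summed over the genes of a complex, ATP synthase transcripts came to 6170, 6123 and 6128 CPM in the mutant libraries and 5756, 5534 and 5196 CPM in the wild-type libraries, a ratio of 1.12, or 1.09 without wild-type replicate 3. The bc1 complex came to 4329 ± 51.8 CPM in the mutant and 3878 ± 183 CPM in the wild type (SD, n = 3 each), a ratio of 1.12, also 1.09 without that library. Cytochrome c oxidase came to 1556 ± 15.3 CPM in the mutant and 1529 ± 66.8 CPM in the wild type, a ratio of 1.02. The sums lean on their most abundant genes, such as atp2, and were not tested. All 36 genes together made up 1.69% of the mutant CPM and 1.53% of the wild-type CPM, a ratio of 1.11, or 1.08 without wild-type replicate 3.

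The subunits of a complex were not at equal transcript levels in either strain. Per kilobase of annotated exon, atp2 was the most abundant in wild-type libraries at 1207 CPM, followed by cyc1 at 710 CPM, and nde1 (95.1 CPM) and qcr6 (112 CPM) were the least abundant. The order at the top depends on the length used: per kilobase of coding sequence, cyc1 stood at 2532 CPM and atp2 at 1449 CPM in wild-type libraries. The annotated exon model of atp1 is long, 4795 bases, and its wild-type level was 187 CPM per kilobase of exon but 557 CPM per kilobase of coding sequence.

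The genes that fell were among the less abundant transcripts. With genes divided at means over all libraries of 50 and 200 CPM, limits chosen after the values were seen, 12 subunit genes lay between the limits and 24 above, and none below. Of the 12, 2 were called higher and 7 lower, or 16.7% and 58.3%, where 30.5% of all tested coding genes in that band were called higher and 22.6% lower. Of the 24, 12 were called higher and 0 lower, where 42.0% of coding genes in the band were called higher and 10% lower. The median log2 value of the subunit genes was -0.18 between the limits and 0.17 above, against 0.04 and 0.13 for all coding genes in the same bands. Across the 36 genes the log2 fold change had a Spearman's rho of 0.32 with the mean wild-type CPM, and across 4952 coding genes of 0.30. These are descriptions across genes, which are not independent replicates, and the wild-type libraries enter both quantities.

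**Figure D3:**
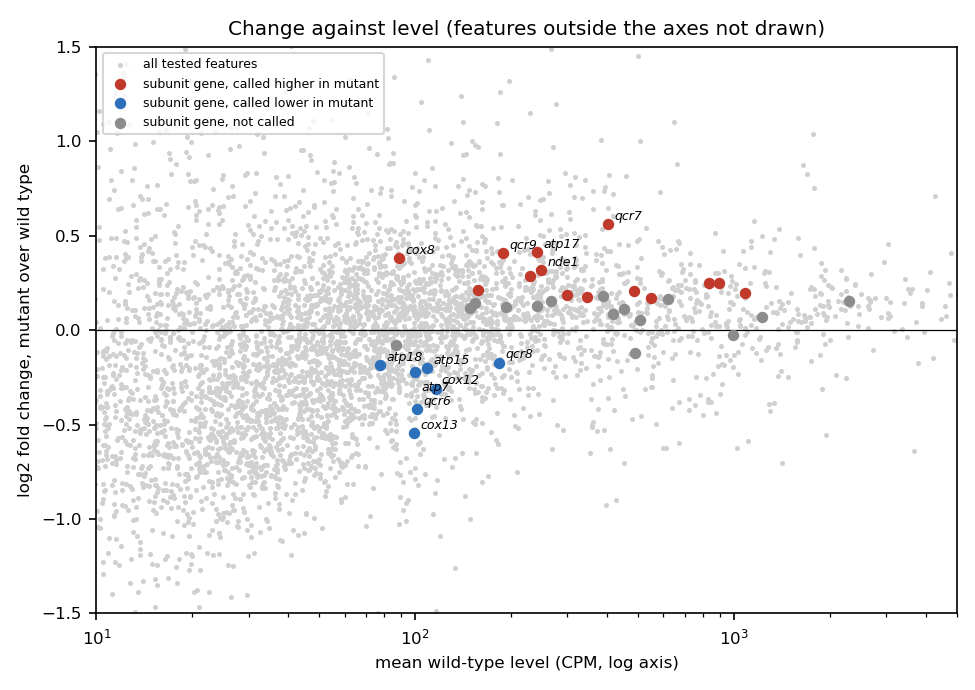
The log2 fold change (seb1-G476S over wild type) is plotted against the mean wild-type CPM on a log axis for tested features within the axes (pale grey), with the 36 subunit genes coloured by call. The 7 genes called lower (blue) lie below 200 CPM, among subunit genes called higher or not called, and every subunit gene above 200 CPM was called higher (red) or not called (dark grey).

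A further check set these calls beside the authors' deposited table, which holds the authors' own DESeq2 comparison. By the authors' deposited table, 14 of the 36 genes were higher and 3 lower at an adjusted p under 0.05, beside 24.4% higher and 22.2% lower of its 6678 features with an adjusted p. The same 14 genes were called higher in both, and the 3 lower genes of the authors' deposited table were cox12, cox13 and qcr6. The genes atp7, atp15, atp18 and qcr8 were called lower by edgeR here and not in the authors' deposited table. DESeq2 as run here also called all 7 lower genes. The authors' log2 fold changes lay above those of edgeR by a median of 0.037 over the subunit genes. The source of the difference was not tested.

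**Figure D4:**
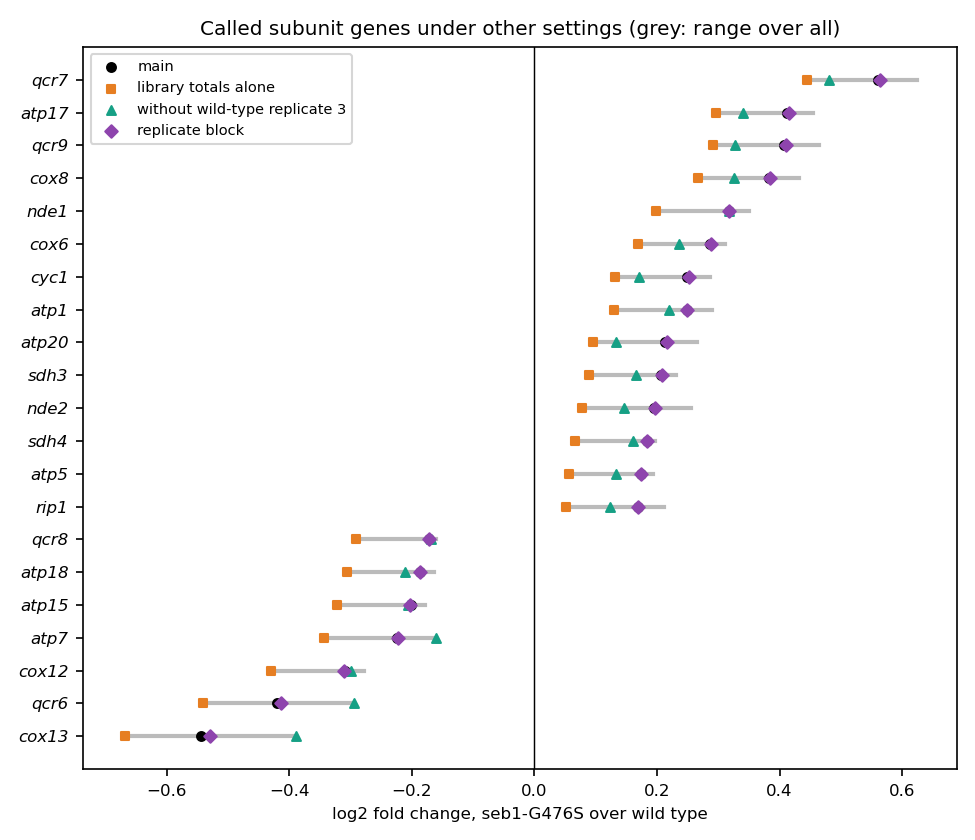
The log2 fold change (seb1-G476S over wild type) of each of the 21 called subunit genes is shown with TMM scaling and all libraries (black), with library totals alone (orange), without wild-type replicate 3 (green) and with a replicate block (purple), and the grey line spans all 11 alternatives. Library totals alone moved every gene to the left, leaving wild-type replicate 3 out moved qcr7 to 0.48 and cox13 to -0.39, and no called gene crossed 0.

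Several subunit genes share annotated sequence with a neighbour in the RefSeq annotation of assembly ASM294v3, which is a later build than the ASM294v2 of the counts. An adjacent coding gene on the opposite strand overlaps 7 of them (atp1, atp4, cox4, cox8, qcr8, qcr9 and rip1), and one on the same strand overlaps 3 (qcr2, cyc1 and nde1). Overlaps with non-coding RNAs were not counted here. Since no source used here gives the strand option of the counting, the values of these 10 genes are uncertain to the extent of the shared stretch. A coding gene lies directly upstream on the same strand of 20 of the 36 genes. For the 10 of these called higher, 3 such upstream neighbours were called higher, 6 lower and 1 not called; for the 3 called lower, 2 neighbours were lower and 1 not called; and for the 7 not called, 3 were higher, 1 lower and 3 not called. Downstream on the same strand, neighbours of genes called higher were higher in 3 cases and lower in 5, those of genes called lower were higher in 3, lower in 2 and not tested in 1, and those of genes not called were higher in 1, lower in 3 and not called in 4. Divergent upstream neighbours numbered 16, of which 6 were higher, 3 lower and 7 not called, and convergent downstream neighbours 14, of which 1 was higher, 6 lower and 7 not called. Over all tested coding genes 24.3% were called higher and 31.5% lower, and these small counts were not tested against that. Of neighbours picked after their values were seen, ima1 upstream of qcr7 rose by a log2 fold change of 1.26 (adjusted p = 6.89e-05). Upstream of cox6, which also rose, SPAC1B2.06 fell (log2 -1.58), at 1.82 CPM in the mutant and 5.45 CPM in the wild type. Upstream of atp14, which was not called, ort1 rose by 1.33. The neighbour SPCC191.06, upstream of cyc1 and overlapping it, rose by 0.76 (adjusted p = 0.00458), at 9.48 CPM in the mutant and 5.57 CPM in the wild type. Downstream of cox13, which fell, SPCC1739.08c rose by 1.56 (adjusted p = 0.00100) at 2.40 CPM in the mutant and 0.811 CPM in the wild type.

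The annotation also lists an antisense RNA for 3 of the genes. The feature atp3-antisense-1 had 13, 17 and 13 counts in the mutant, against 4, 6 and 5 counts in the wild type, and rose by 1.46 ± 0.32 on the log2 scale (adjusted p = 0.00435); DESeq2 did not call it (0.0736). The feature qcr10-antisense-1 had 34, 43 and 40 counts in the mutant and 23, 30 and 23 counts in the wild type, a log2 value of 0.59 (adjusted p = 0.0325) whose call was lost without any 1 library (adjusted p of 0.0501 to 0.111), with library totals alone (0.0698) and with DESeq2 (0.190). The feature atp18-antisense-1 did not pass (0.27, adjusted p = 0.201). These are low counts, and without a stated strand option reads of a gene and its antisense RNA cannot be told apart.

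The subunits encoded in mitochondrial DNA could not be set beside the nuclear ones. The genes cox1, cox2 and cox3 of the oxidase, cob1 of the bc1 complex, and atp6, atp8 and atp9 of ATP synthase were all listed at 0 in every library, as were all 36 rows of the mitochondrial genome.

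Genes that serve the same complexes were described from lists of the pathway, to be read against 24.3% of all tested coding genes called higher and 31.5% lower. With library totals alone calls shifted downward over all features, to 1148 higher and 2287 lower, and the counts of the lists under that scaling stand beside that shift. Among 3 further ATP synthase genes, inh1, the inhibitor of ATP hydrolysis, averaged 149 ± 10.4 CPM in the mutant and 122 ± 5.48 CPM in the wild type and rose (log2 0.29, adjusted p = 0.00490). The membrane subunit genes tim11 and atp19 both fell. Levels of tim11 were 61.3 ± 1.73 CPM in the mutant and 84.7 ± 11.2 CPM in the wild type (-0.47, adjusted p = 0.00212), and of atp19 45.8 ± 0.432 CPM in the mutant and 63.2 ± 5.18 CPM in the wild type (-0.46, adjusted p = 0.000950).

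Assembly factors, which insert cofactors and join subunits but are not part of the finished complexes, were called higher in a smaller share than all coding genes and lower in a near equal one, a description with no test: of 36 tested, 4 rose (11.1%) and 11 fell (30.6%), with a median log2 value of -0.10 at a median wild-type level of 26.6 CPM. Of the 26 with a mean under 50 CPM, 0 rose and 11 fell (42.3%), with a median of -0.26, where 13.0% of the 2381 coding genes at that level were called higher and 46.1% lower, with a median of -0.31. The largest falls were those of pet117 (-0.89, adjusted p = 0.00296), which acts in cytochrome c oxidase assembly, cbp6 (-0.82, adjusted p = 0.000244), which acts in cytochrome b synthesis, atp12 (-0.76, adjusted p = 0.00434), a chaperone of F1 assembly, and cmc2 (-0.70, adjusted p = 0.00827). The gene cbp6 is also the downstream neighbour of nde1, which rose; cbp6 had 14.6, 15.0 and 14.1 CPM in the mutant, against 27.6, 25.1 and 24.3 CPM in the wild type.

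Of 13 genes for mitochondrial gene expression, 5 rose (38.5%) and 2 fell (15.4%), or 2 rose and 3 fell with library totals alone; without mutant replicate 2 or 3, 2 rose. The largest changes were in genes of pentatricopeptide repeat proteins, which bind mitochondrial RNA: ppr5 (0.50) and ppr8 (0.34) rose, and ppr2 (-0.99) and ppr6 (-0.45) fell. Of 12 TCA cycle genes, 5 rose (41.7%) and 1 fell (8.33%), leaving out lsc1, a symbol that here names a cyclin gene. With it and with library totals alone, 4 rose and 5 fell, and without mutant replicate 1, 3 rose. The mitochondrial isocitrate dehydrogenase gene idp1 averaged 706 ± 76.5 CPM in the mutant and 504 ± 65.9 CPM in the wild type (0.48, adjusted p = 0.00332), and the aconitase gene aco1 rose by 0.35 (adjusted p = 0.00142). The 2-oxoglutarate dehydrogenase gene kgd2 (0.31, adjusted p = 0.0221) lost its call without mutant replicate 1 or 2 or wild-type replicate 2 (0.0572 to 0.0945) and with library totals alone (0.0730).

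Of 12 genes for coenzyme Q, the lipid that carries electrons to the bc1 complex, 2 rose (16.7%) and 5 fell (41.7%). The prenyl diphosphate synthase gene dps1 averaged 49.6 ± 1.36 CPM in the mutant and 76.1 ± 6.25 CPM in the wild type (-0.62, adjusted p = 0.000186), and coq3 (-0.58) and abc1 (-0.62) fell as well, while coq9 rose by 0.47. Of 8 heme synthesis genes, 3 rose and 3 fell (37.5% each); with library totals alone, or without mutant replicate 2 or wild-type replicate 2, 1 rose. The gene hem1, for the first enzyme of the pathway, had 770, 701 and 678 CPM in the mutant, against 402, 404 and 410 CPM in the wild type, and rose by 0.82 ± 0.06 (adjusted p = 8.98e-06). The later-step genes hem3 (-0.46) and hem4 (-0.65) fell. The ferrochelatase gene hem15 rose by 0.33 (adjusted p = 0.0170), a call lost without mutant replicate 1 or 2 or wild-type replicate 2 (0.0511 to 0.0651) and with library totals alone (0.0640).

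The CCAAT-binding complex of Php2, Php3 and Php5 activates respiratory genes in yeasts, and Php4 joins it to repress iron-using genes when iron is scarce. Of these 4 genes with the iron regulators fep1 and grx4, 4 rose and 1 fell. The gene php4 had 60.4, 57.7 and 58.2 CPM in the mutant, against 42.6, 41.1 and 39.7 CPM in the wild type (log2 0.51, adjusted p = 0.000308). The DNA-binding subunit genes php3 (0.48, adjusted p = 0.000227) and php2 (0.34, adjusted p = 0.00268) rose with no overlap between groups. The third, php5, rose by 0.17 (adjusted p = 0.0197), also with no overlap, a call lost without mutant replicate 2 (0.123) and with library totals alone (0.367). The glutaredoxin gene grx4 fell by 0.27 (adjusted p = 0.0162), again with no overlap, a call lost without mutant replicate 2 or 3 or wild-type replicate 2 (0.0524 to 0.0529). Of 5 carrier and other electron-donor genes, 2 rose and none was called lower: the pyruvate carrier gene mpc2 by 0.53 (adjusted p = 0.000234) and ura3 by 0.20 (adjusted p = 0.0288), the second lost without mutant replicate 1 or 2 or wild-type replicate 2 or 3 (0.0512 to 0.0954) and with library totals alone (0.137). The gene seb1 itself had 368, 361 and 341 CPM in the mutant and 133, 119 and 108 CPM in the wild type. It rose by a log2 fold change of 1.57 (adjusted p = 7.33e-07) with no overlap between groups. The strains thus differed in the level of seb1 RNA as well as in the allele, and the part of each was not tested.

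**Figure D5:**
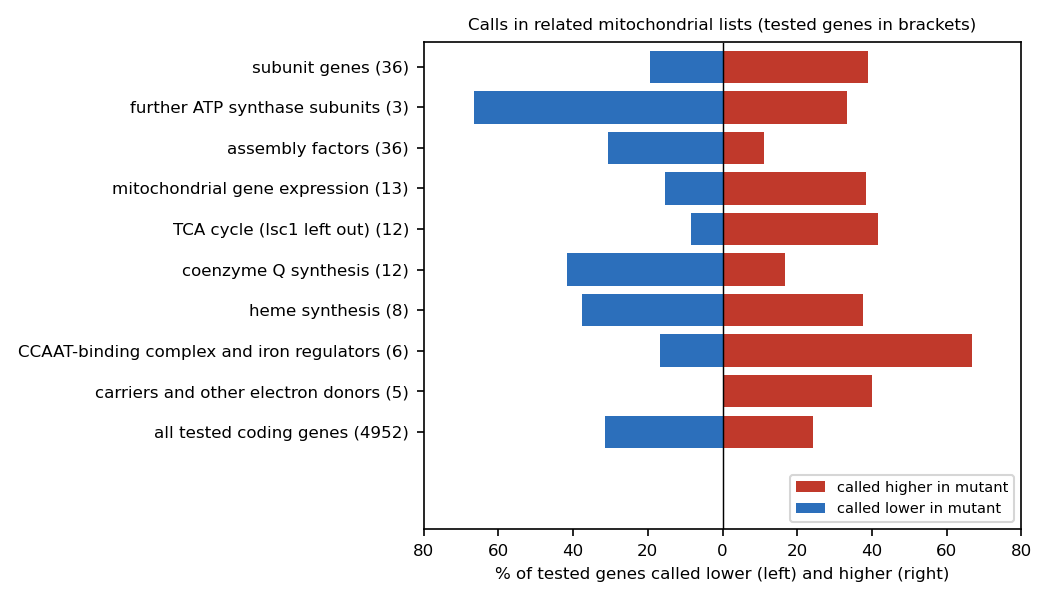
For each list, bars give the percentage of tested genes called lower (blue, to the left of 0) and higher (red, to the right of 0) in seb1-G476S against wild type, with the number of tested genes in brackets and all tested coding genes at the bottom. The subunit genes had 38.9% higher and 19.4% lower, assembly factors 11.1% higher and 30.6% lower, and all coding genes 24.3% higher and 31.5% lower.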

How the data were processed

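RNA-seq libraries of polyadenylated RNA (TruSeq stranded kit, paired-end reads, per the labels' protocols) were analysed from 2 tables the authors deposited. The first holds raw counts per annotated feature, per the file headers. The second is the authors' deposited comparison, with log2 fold changes and standard errors, p-values raw and adjusted, a score (the test statistic) and a signal of group means of scaled counts. Named in the submitters' processing notes are the build ASM294v2 and the tools DESeq2, HTSeq 0.10.0, SAMtools and HISAT2 2.1.0. Annotation release and strand option: not given in the sources used here. No per-sample column was left out.

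An identifier on 2 of the 6987 rows was summed, leaving 6986 features. Mutant and wild type were compared with edgeR 4.0.16 in R 4.3.3 (quasi-likelihood test, two-sided, TMM, filterByExpr with a minimum count of 10, 4 residual degrees of freedom) with Benjamini-Hochberg adjustment over 6046 features. A call means an adjusted p under 0.05, and "rose" and "fell" are used of calls alone. SE was taken as the size of the log2 fold change divided by the root of the F statistic. The fit was tested on simulated data. P-values set the difference between the groups against the spread between replicates of a single strain per group.

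Alternatives were library totals alone, DESeq2 size factors, DESeq2 1.42.0, no low-count filter, the replicate number as a block, and each library left out. All called subunit genes are named, and up to 4 called genes of each related list by size of change, besides php2, php3, php4, php5 and seb1. Members and lists were chosen with earlier results of these data known. Gene lengths and neighbours come from the RefSeq annotation of ASM294v3, whose coordinates are not given. Promoter and protein sequences were not analysed here.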

Additional observations from a re-analysis of the deposited data

How the results depend on the processing

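With library totals alone, 7 subunit genes were called higher, and 4 genes not called by either scaling took the other sign: atp4 (log2 -0.064), qcr1 (-0.049), qcr2 (-0.034) and sdh2 (-0.0074). DESeq2 size factors and the DESeq2 test each gave 16 higher and 7 lower, and the run without a low-count filter 14 and 7. Leaving out 1 library at a time gave 7 to 19 genes higher, 3 to 8 lower, and 2522 to 3512 features changed in all; the log2 value of sdh1, not called, ran between -0.076 without wild-type replicate 3 and 0.035 without wild-type replicate 1. The cause of these differences was not tested. With a replicate block, 20 genes were higher and 8 lower, and 3906 features changed. The labels state no pairing, so the replicate number entered only as an alternative. Deviations of same-numbered libraries correlated at 0.357, 0.0585 and 0.263, and those of differently numbered libraries at -0.301 to 0.0658. The highest of the latter joined mutant replicate 2 and wild-type replicate 3. Each deviation is taken from the mean of its own group, so these correlations are tied to each other and cannot all be positive. Whether same-numbered libraries share an effect was not tested further. Of the 14 higher and 7 lower calls, 7 higher and 3 lower held in every alternative. Calls lost without 1 library included log2 values as large as 0.25 (cyc1) among the subunit genes. Among the genes named from the pathway lists they reached 0.33 (hem15). Larger falls also lost their calls among the assembly factors, of which 11 were called lower with all libraries and 9 without wild-type replicate 2. The smallest of the 11 falls had a log2 value of -0.46 (cox10).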

Other observations

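The gene fmc1, an assembly factor of ATP synthase, had 41.6, 45.1 and 43.4 CPM in the mutant, against 18.4, 27.5 and 55.8 CPM in the wild type, and was singled out after its values were seen. The mutant libraries were close together and the wild-type libraries spread widely around them, with wild-type replicate 3 the highest. It did not pass by edgeR (log2 0.36, adjusted p = 0.347) and passed as higher without wild-type replicate 3 (0.91, adjusted p = 0.000142).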
